A study of Mus musculus with 8 samples.

Results

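To compare a drug that raises cAMP directly with an agonist that raises it through its receptor, beta cells of wild type (WT) islets treated with forskolin (FSK) were set against beta cells of WT islets treated with Exendin-4 (Ex-4). The contrast used 2 of the 54 pooled columns of a single nucleus RNA-seq table, WT FSK beta cells and WT Ex-4 beta cells, and subtracted the second from the first. Untreated WT islets (CON) did not enter the contrast. They are given beside it, as are the CON, FSK and Ex-4 pools of Med14 S983A mice, which carry a whole-body knock-in that replaces a serine of the Mediator subunit MED14 with alanine. Ex-4 was given at 10 nM for 16 h, and FSK also for 16 h per the text of the study. The dose of FSK given to islets was not in the labels, so the doses cannot be matched. Each condition was 1 pool of nuclei from isolated mouse islets, so no difference below has a replicate check, and treatment cannot be told apart from islet preparation or barcode well.

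Ex-4 is a long-lived peptide that activates the GLP-1 receptor, which acts through the stimulatory G protein Gs on adenylyl cyclase. FSK binds most membrane adenylyl cyclases and activates them without a receptor, in every cell type that carries them. In beta cells cAMP acts through protein kinase A (PKA) and EPAC, enhances glucose-stimulated insulin secretion, and induces genes through the transcription factor CREB and its CRTC coactivators, while phosphodiesterases, PKA regulatory subunits and receptor desensitization limit the signal.

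The 2 pools were of like depth, with 3094377 counts for WT FSK and 2981093 for WT Ex-4, and the mutant beta pools held between 1915006 and 2303451 counts. Levels are counts per 10000 counts of the pool (CP10K), and differences are differences of log2(CP10K + 1), FSK minus Ex-4. Genes were called higher or lower in FSK where the difference was at or past 1.5-fold on that scale, or 0.58. A gene at a low level in both pools cannot reach this, whatever its ratio. A list with no call can therefore still hold relative differences. Intervals of levels, sums and ratios cover counting error only, and those of shares treat genes as independent draws, which they are not. Both pools carried the markers of beta cells, whose 10 genes summed to 56.97 CP10K in FSK and 51.6 in Ex-4. Alpha cell markers summed to 3.60 and 1.09 CP10K. Ttr made up 3.30 and 0.627 of these, Gcg was at 0.262 and 0.362, and the delta cell hormone gene Sst was at 0.0129 and 0.0671. Of the markers of other cells, 3 of 3 ductal, 4 of 4 stromal and 3 of 4 macrophage genes were at 0 in both pools. The 5 endothelial markers, of which Plvap was at 0 in both, summed to 0.0355 (0.0177 to 0.0636) CP10K in FSK and 0.164 (0.122 to 0.217) in Ex-4, and their part in the differences was not tested.

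Of 10093 genes above the filter on low values, 455 (4.51%) were higher in FSK and 296 (2.93%) were lower, so 60.6% of the calls were higher. In pooled nuclei, fewer expressing cells and less RNA per cell cannot be told apart. In all 751 the counting interval of the ratio lay apart from 1. At this depth the 1.5-fold threshold itself brings this about, so it is no separate check of the calls. The median difference of kept genes was -0.087. This split depended on the scale. Without the 1 that the log values carry, on CP10K values to which only 0.01 times the median level was added, the median was -0.48, and 1504 genes were higher against 4646 lower (24.5% higher). With the median set to 0 the counts were 594 and 190 (75.8% higher), and after genes linked to ribosomal RNA or of the mitochondrial genome were left out and the pools rescaled 401 and 407 (49.6% higher). Among the kept genes, those at low levels thus lay mostly lower in FSK in relative terms. The share of calls in each direction holds for the stated scale. Detection over the whole table went the other way. The FSK pool had 14059 genes above 0, the Ex-4 pool 12302 and the untreated WT pool 15324. At like depth, fewer genes were thus seen after Ex-4, and the cause was not tested. At the edge of the threshold stood Zdhhc14, just inside at 0.585, and Spink10, just outside at 0.584, and on the lower side Rrp1 at -0.587 and Hnrnpk at -0.582. Tafa4 was the single called gene listed at 0 in all cell types of WT Ex-4, with 0.501 CP10K in WT FSK, and no fold is given for it.

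**Figure D1:**
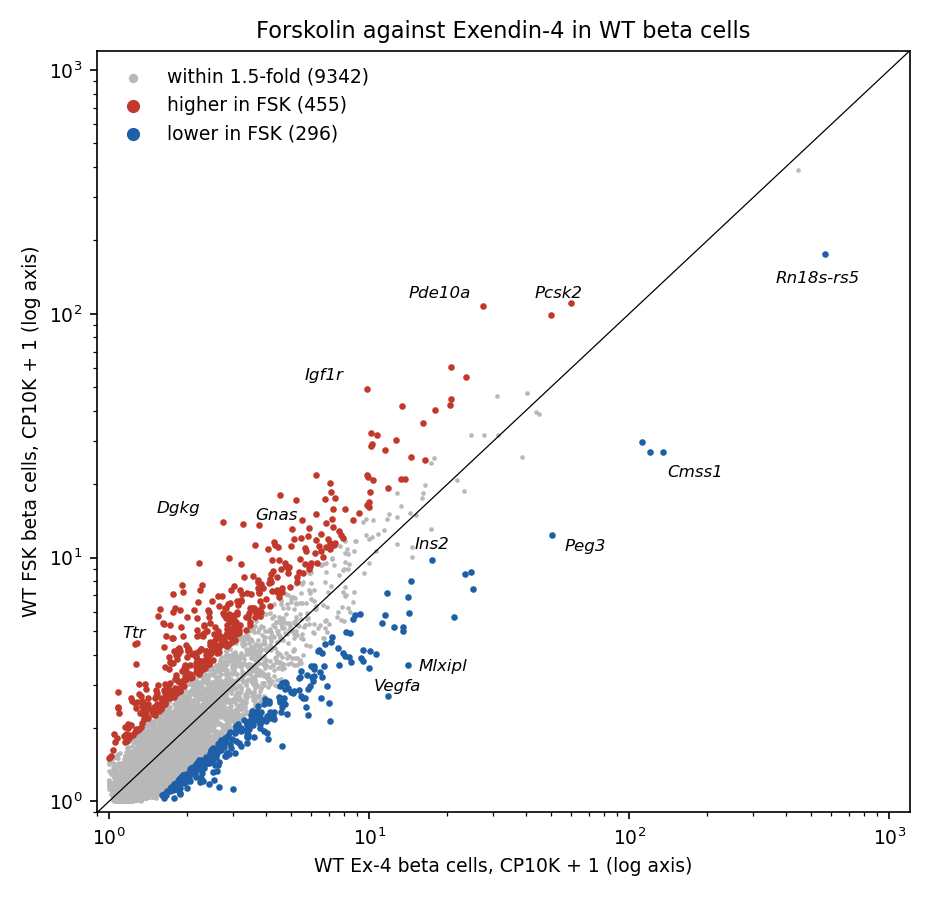
Level of each kept gene in WT Ex-4 beta cells (x axis) and WT FSK beta cells (y axis), both as CP10K + 1 on log axes, with the line of equality. Red points are the 455 genes higher in FSK and blue points the 296 lower; Igf1r, Pde10a and Dgkg lie far above the line and Cmss1, Peg3 and Mlxipl far below it.

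The genes furthest above Ex-4 included components of lipid, growth factor and G protein signaling. Dgkg, a diacylglycerol kinase that removes the lipid messenger diacylglycerol, was at 13.03 CP10K in WT FSK, 1.74 in WT Ex-4 and 1.96 in WT CON. It was 7.50-fold (95% counting interval 6.84 to 8.24) higher in FSK than in Ex-4, with a difference of 2.36 on the log2(CP10K + 1) scale. The gene lies at chr16:22283359-22476155, minus strand of GRCm39, and overlapping annotated genes may share its reads. The untreated and Ex-4 pools were thus close to each other and the FSK pool stood apart. Igf1r, the receptor for insulin-like growth factor 1 (chr7:67601518-67883416, plus strand), was at 48.4, 8.80 and 12.6 CP10K in the same order, 5.49-fold (95% counting interval 5.27 to 5.73) higher in FSK, and here Ex-4 lay below CON. Gnas, which encodes the Gs alpha subunit that couples the GLP-1 receptor to adenylyl cyclase (chr2:174126022-174188537, plus strand), was at 12.7, 2.27 and 2.09 CP10K and was 5.57-fold (95% counting interval 5.14 to 6.06) higher. Pde10a, a phosphodiesterase that degrades cAMP and cGMP (chr17:8744204-9205482, plus strand), had 107 CP10K in FSK against 26.5 in Ex-4 and 30.9 in CON, 4.03-fold (95% counting interval 3.93 to 4.13) higher.

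The remaining genes among the 12 with the largest differences were Dlg2, a synaptic scaffold (difference 2.09), Mctp1 (2.02), the cell adhesion gene Nrcam (2.01), Rasgef1b, an exchange factor of Ras family GTPases (2.00), the cytoskeletal kinase-like gene Peak1 (1.98), Epb41l4a (1.92), the lysosomal acetyltransferase Hgsnat (1.90) and Pam, which amidates peptide hormones in granules (1.85). Their WT FSK levels ran from 4.75 CP10K for Hgsnat to 17.1 for Rasgef1b. In each of the 12 genes the FSK pool held the highest of the WT levels.

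Among the genes furthest below Ex-4, those with a known metabolic or growth function were Mlxipl, Peg3 and Vegfa. Mlxipl encodes the glucose-responsive transcription factor ChREBP (chr5:135118744-135168615, plus strand) and was at 2.64 CP10K in WT FSK, 13.2 in WT Ex-4 and 10.7 in WT CON. It was 4.99-fold (95% counting interval 4.62 to 5.39) lower in FSK, a difference of -1.96, and the Ex-4 level was close to the untreated one. The imprinted zinc finger gene Peg3 (chr7:6706882-6733468, minus strand) was at 11.4, 49.5 and 33.2 CP10K, 4.34-fold (95% counting interval 4.19 to 4.51) lower. Vegfa, the vascular endothelial growth factor that beta cells supply to islet vessels, was at 2.52, 8.99 and 5.92 CP10K, 3.57-fold (95% counting interval 3.30 to 3.87) lower. For these 3 genes CON lay between the treatments.

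Other genes far below Ex-4 included Ddx5, an RNA helicase (4.71 against 20.3 CP10K, difference -1.90), Srrm2, a spliceosome scaffold (7.72 against 23.7, -1.50), Gphn, which anchors inhibitory receptors (28.7 against 111, -1.91), and an unnamed gene, ENSMUSG00000095041 (-2.13). The levels of Gphn were near those of Lars2 (below), a gene whose counts can include ribosomal RNA. In mutant CON, FSK and Ex-4 Gphn was at 125, 31.1 and 148 CP10K and Lars2 at 123, 29.2 and 163. Whether ribosomal RNA adds to the Gphn counts was not tested. Among the 30 genes furthest below Ex-4 above the median level, 7 more with roles in pre-mRNA splicing are given, picked with their values known and from no list, so they are examples and not a tally. Luc7l3 had a difference of -1.46, Rbm25 -1.40, Son -1.37, Prpf38b -1.36, Pnisr -1.34, Srsf11 -1.31 and Pnn -1.22. Their levels in FSK ran from 1.26 CP10K for Prpf38b to 4.21 for Son, and in Ex-4 from 4.82 to 12.5. For each of these 7 genes CON lay between FSK and Ex-4.

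The other leading genes on the lower side belong to a set whose counts can include ribosomal RNA. Cmss1 went from 134 CP10K in Ex-4 to 26.2 in FSK (difference -2.31), Lars2 from 119 to 26.02 (-2.16), Camk1d from 24.01 to 6.41 (-1.76), Filip1l from 6.04 to 1.14 (-1.72), and Rn18s-rs5, an 18S ribosomal RNA sequence, from 567 to 175 (-1.69). The 8 listed genes of this kind summed to 281 (279 to 283) CP10K in FSK, 917 (914 to 920.4) in Ex-4 and 344 (342 to 346) in CON, and 6 of the 8 were lower in FSK. The 2 mitochondrial ribosomal RNA genes differed the same way, mt-Rnr1 with 0.145 against 1.65 CP10K and mt-Rnr2 with 0.178 against 1.42. The Ex-4 pool thus held more of these RNAs per count than either other WT pool, and the part of this in the other differences was tested only by the rescaling above.

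**Figure D2:**
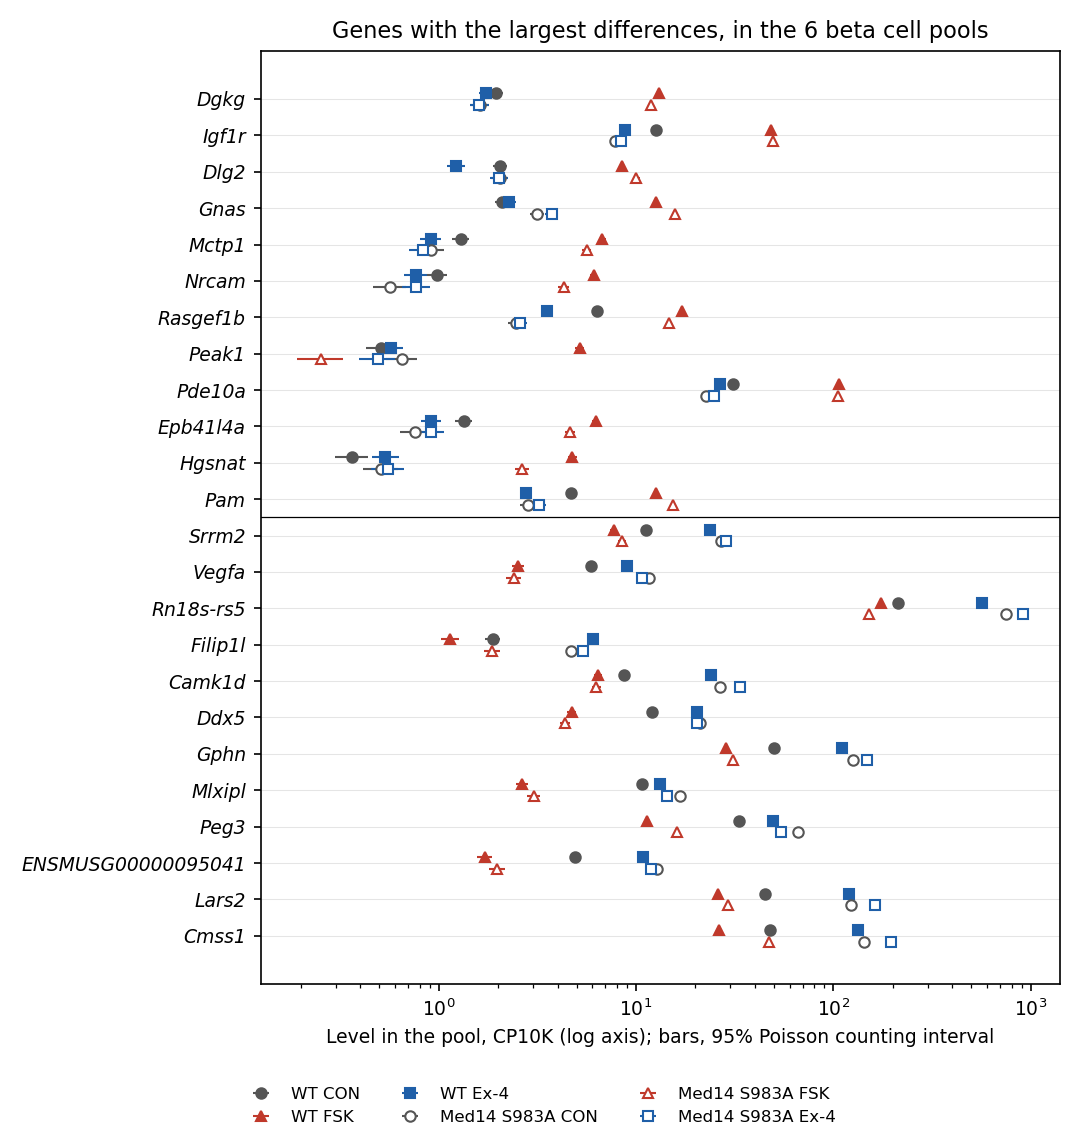
Levels, in the 6 beta cell pools, of the 12 genes furthest above and the 12 furthest below Ex-4 in WT FSK, in CP10K on a log axis, with 95% Poisson counting intervals; filled symbols are WT and open symbols Med14 S983A. Red triangles (FSK) stand to the right in the upper block and to the left in the lower block in both genotypes, except for Peak1 in the mutant, where FSK was at 0.252 CP10K.

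To see where in the cAMP pathway the treatments differed, its genes were followed from receptor to nucleus. Counts of list members, here and below, stand beside 4.51% higher and 2.93% lower among all kept genes. They hold for the stated scale, on which genes at low levels in both pools cannot be called. In the longest decile of genes 27.2% were higher. Among 15 receptors of the incretin and glucagon family and their desensitizing proteins, 1 was higher and 1 lower in FSK. The lower gene was Gipr, the receptor of the other incretin hormone GIP, with 1.79 CP10K in FSK, 4.08 in Ex-4 and 3.06 in CON. Rgs7, which speeds the shutoff of inhibitory G proteins, was the higher one, with 6.94, 2.73 and 5.25. Glp1r itself was at 5.55, 7.68 and 9.39 CP10K and did not reach the threshold (-0.41), nor did the receptor kinase genes Grk3 (-0.21) and Grk5 (0.32).

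Of 17 G protein subunit genes, 3 were higher and 1 lower. Besides Gnas these were Gng12, a gamma subunit gene, at 30.7 CP10K in FSK against 9.74 in Ex-4 (1.56), Gnaq, whose product couples muscarinic receptors to phospholipase C, at 4.71 against 2.36 (0.76), and on the lower side Gnb2 at 0.0614 against 0.614 (-0.60). The inhibitory subunit genes Gnai2 (-0.55) and Gnai3 (0.54) lay on opposite sides of 0 and neither reached the threshold. Of 13 other G protein coupled receptors, Gabbr2, a subunit of the GABA-B receptor (16.3 against 5.78, 1.35), and Chrm3, the muscarinic receptor of beta cells (24.7 against 13.5, 0.82), were higher.

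Adenylyl cyclases, the enzymes FSK acts on, were few above the filter. Adcy9, the isoform known for its weak response to FSK, was at 5.22 CP10K in FSK and 3.65 in Ex-4 (0.42), Adcy6 was lower at 0.410 against 1.55 (-0.85), and Adcy8 was at 0.107 against 0.0369. The other 7 cyclase genes did not pass the filter. On the degrading side, 5 of 16 phosphodiesterase genes were higher in FSK and 0 lower, with a median of 0.15 over the 16 against -0.087 over all kept genes. Together the 21 phosphodiesterase genes in the table summed to 141 (139.7 to 142) CP10K in FSK, 42.4 (41.7 to 43.2) in Ex-4 and 55.4 (54.6 to 56.2) in CON, of which Pde10a gave 107, 26.5 and 30.9.

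Besides Pde10a, the genes past the threshold were Pde1c, a calmodulin-dependent enzyme (10.6 CP10K in FSK, 3.31 in Ex-4, 3.55 in CON), the cAMP-specific Pde4d (8.79, 3.49, 5.56), Pde7b (3.70, 1.60, 3.20) and Pde3b, which restrains insulin secretion (4.08, 1.83, 3.67). The genes differed in where the untreated pool lay. For Pde10a and Pde1c the FSK pool stood apart from CON, for Pde4d CON lay about midway between FSK and Ex-4 (0.58 for FSK minus CON and -0.55 for Ex-4 minus CON), and for Pde7b and Pde3b the FSK and CON levels were close and the Ex-4 level was the low one.

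Among 19 genes of PKA, its anchors and EPAC, 4 were higher and 2 lower. Prkar1a, a regulatory subunit that holds PKA inactive, was at 2.67 against 1.41 CP10K (0.61), and Rapgef4, which encodes the cAMP-activated exchange factor EPAC2 of beta cells, at 10.5 against 6.05 (0.71). The anchor genes Akap6 (0.83) and Akap13 (0.59) were higher, and Akap8 (-0.69) and Akap9 (-0.97) lower. The catalytic subunit genes Prkaca (-0.13) and Prkacb (0.18) did not reach the threshold.

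At the nuclear end, Creb1, which encodes CREB, was at 1.98 CP10K in FSK, 0.681 in Ex-4 and 1.01 in CON (0.82). Creb3l2, a membrane-bound relative (0.71), and Crem, whose short forms repress cAMP-induced genes (0.59), were the other genes past the threshold of 17 CREB factors, coactivators and SIK kinases. The coactivator genes Crtc1 (-0.32), Crtc2 (-0.24) and Crtc3 (0.49) and the kinase gene Sik1 (0.17) were not past it. Of 12 early response genes above the filter, Irs2, an insulin receptor substrate and CREB target, was the single one past the threshold, at 1.64 CP10K in FSK, 0.711 in Ex-4 and 0.621 in CON. Nr4a2 was at 0.747 against 0.238 (0.50), Nr4a1 at 0.139 against 0.0738 and Fos at 0.0517 against 0.138. None of these 3 genes reached the threshold, which Nr4a1 and Fos could not reach at such levels on this scale.

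The cAMP response element (CRE) that CREB binds was searched for in promoters of the kept genes, from 250 bases before to 50 bases after the start of the canonical transcript (GRCm39, GENCODE M39). The full element, TGACGTCA, reads the same on both strands. It was in 332 of 9834 kept promoters (3.38%), in 11 of 452 promoters of genes higher in FSK (2.43%, Clopper-Pearson interval 1.22 to 4.31) and in 9 of 289 of genes lower in FSK (3.11%, 1.43 to 5.83). The short element, TGACG or its reverse complement CGTCA, which the full element contains, was in 30.9% of kept promoters, 25.2% of the higher and 35.3% of the lower set. The share of promoters with the full element was thus close to that of all kept genes in both directions. The windows around it are shown for 6 genes that differ between the treatments, 5′ to 3′ on the strand of the gene, with the element in capitals. They lie before the start, the element beginning 47 bases upstream in Pcsk1 (chr13:75237878-75237925, plus strand), 44 in Pde7b (chr10:20600903-20600950, minus strand), 69 in Camk2d (chr3:126389863-126389910, plus strand), 46 in Errfi1 (chr4:150939456-150939503, plus strand), 81 in Ppig (chr2:69553085-69553132, plus strand) and 128 in Peg3 (chr7:6733569-6733616, minus strand).
Pcsk1: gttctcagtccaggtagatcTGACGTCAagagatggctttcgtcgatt
Pde7b: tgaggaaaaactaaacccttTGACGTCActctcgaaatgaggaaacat
Camk2d: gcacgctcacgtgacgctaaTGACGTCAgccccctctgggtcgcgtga
Errfi1: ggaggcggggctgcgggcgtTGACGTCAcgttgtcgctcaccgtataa
Ppig: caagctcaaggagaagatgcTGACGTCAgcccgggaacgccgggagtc
Peg3: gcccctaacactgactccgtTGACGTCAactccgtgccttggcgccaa
The first 4 of these genes were higher in FSK, with differences of 1.20 for Pcsk1, 0.85 for Pde7b, 1.20 for Camk2d, a calmodulin-dependent kinase gene, and 0.93 for Errfi1, an inhibitor of EGF receptor signaling. Ppig, a cyclophilin gene (-0.74), and Peg3 (-2.03) were lower, so the same element stands before genes of both directions. A match to these letters is a description of the sequence and was not tied to binding here.

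**Figure D3:**
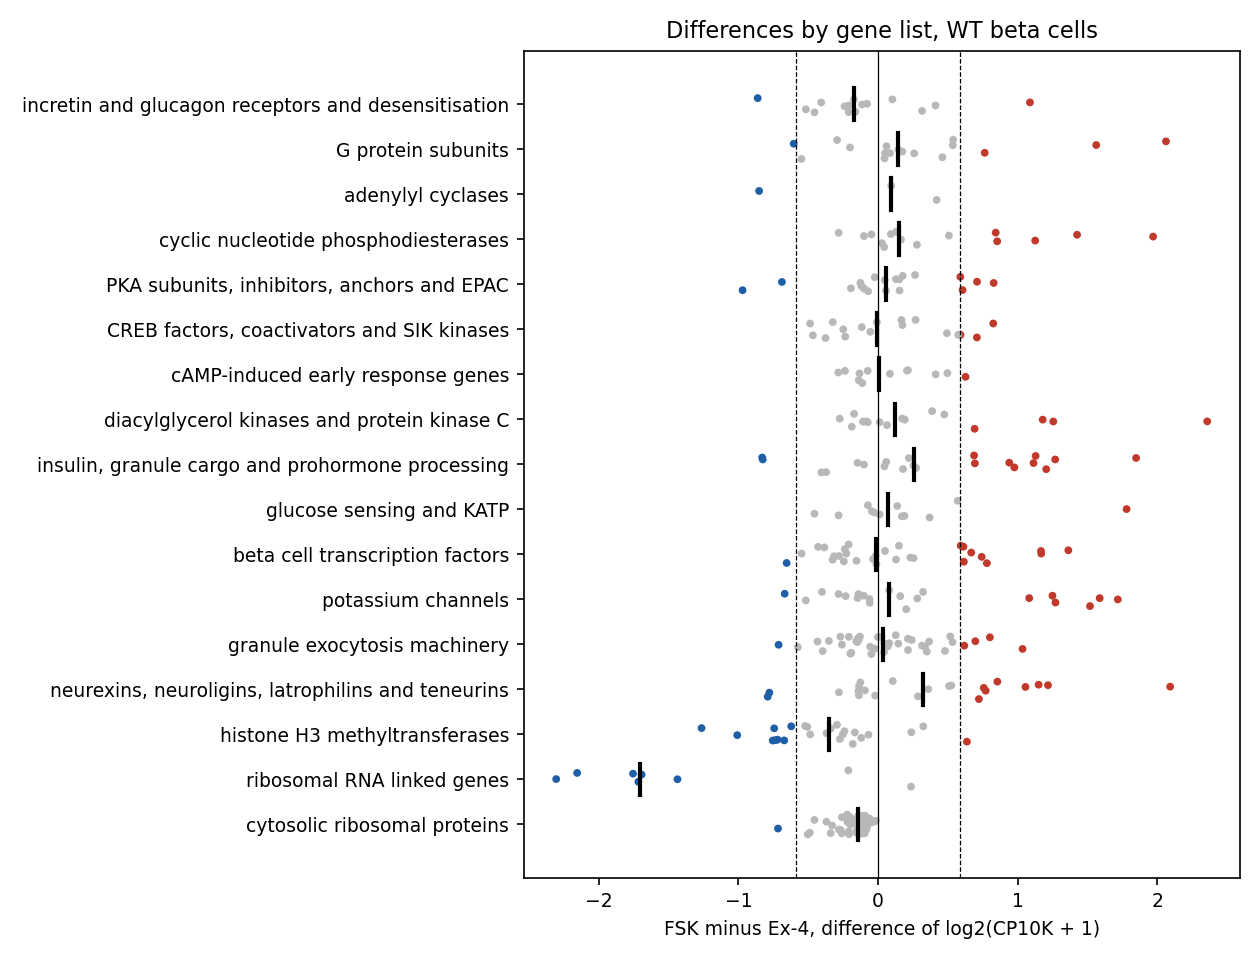
Difference FSK minus Ex-4 of each kept member of 17 gene lists in WT beta cells, on the log2(CP10K + 1) scale. Red and blue points are past the dashed 1.5-fold thresholds and black bars are list medians, which range from -1.71 for ribosomal RNA linked genes to 0.32 for neurexins and related genes.

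Signaling that runs beside cAMP was also uneven. Of 16 diacylglycerol kinase and protein kinase C genes, 4 were higher and 0 lower. With Dgkg these were Dgkh (0.69), Prkcb, a diacylglycerol-activated kinase (16.6 against 6.36 CP10K, 1.25), and Prkd1, protein kinase D1 (4.25 against 1.32, 1.18). Of 26 genes of insulin and IGF signaling, 4 were higher, namely Igf1r, Foxo1 (1.17), Pik3r1 (0.84) and Irs2, and 1 was lower. That gene was Insrr, the insulin receptor-related receptor, at 1.43 CP10K in FSK, 4.72 in Ex-4 and 5.16 in CON, where FSK alone stood apart.

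The insulin genes and genes of prohormone processing lay on opposite sides. Ins1 was at 3.26 CP10K in FSK, 6.58 in Ex-4 and 4.54 in CON, and Ins2 at 8.81, 16.4 and 10.4. Both were lower in FSK than in Ex-4 (-0.83 and -0.83), with CON between, and as near-identical copies they may share reads. Of 21 genes of insulin, granule cargo and prohormone processing, 9 were higher in FSK, 2, the insulin genes, were lower, and 10 did not reach the threshold. Iapp, which encodes the peptide amylin stored with insulin, was at 14.1 CP10K in FSK, 5.27 in Ex-4 and 11.6 in CON. The prohormone convertase genes Pcsk1 (6.38, 2.20, 3.32) and Pcsk2 (97.9, 49.3, 76.4) and the carboxypeptidase gene Cpe (14.9, 6.27, 8.16) had the same order, FSK above CON above Ex-4.

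The other members of this group past the threshold were Pam, Ero1b, an oxidase of disulfide formation (43.5 against 19.6 CP10K), Scg5, the chaperone of the Pcsk2 product (0.94), Chgb (0.69) and Ica1 (0.69). Chga, a core granule protein gene, lay on the other side without reaching the threshold (10.03 against 13.6 CP10K, -0.41; mutant -0.72). In ER stress genes, 2 of 29 were higher, Ero1b and Ern1, the sensor IRE1 (1.01). Of 40 exocytosis genes, 4 were higher, among them Snap25, a core fusion protein (1.03), and 1 was lower, the complexin gene Cplx2 (-0.71).

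Of 12 genes of glucose sensing, G6pc2, which dephosphorylates glucose 6-phosphate, was the single one past the threshold. It was at 8.97 CP10K in FSK, 1.90 in Ex-4 and 4.20 in CON, 4.72-fold (95% counting interval 4.31 to 5.17) higher in FSK than in Ex-4, with CON between. The glucose transporter gene Slc2a2 was at 7.90 CP10K in FSK and 6.91 in Ex-4, and the KATP channel gene Abcc8 at 19.8 and 20.9. None of 16 glycolysis and none of 20 fatty acid genes was past the threshold, and of 11 genes of ChREBP, its partners and its targets Mlxipl was the single one. Its target Txnip was at 0.136 against 0.470 CP10K (-0.37). Genes at low levels cannot reach the threshold on this scale. On CP10K values with 0.01 times the median level added, 2 glycolysis genes were higher and 10 lower. For fatty acid genes these counts were 6 and 8, against 1504 and 4646 of 10093 kept genes.

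Beta cell transcription factor genes differed in both directions, read against 4.51% higher and 2.93% lower among all kept genes. Of 29, 9 were higher in FSK, led by St18 (13.2 against 4.53 CP10K, 1.36), Foxo1, a target of insulin signaling (5.54 against 1.91, 1.17), and Rfx3, a regulator of ciliary genes and of endocrine differentiation (5.46 against 1.88, 1.17). Meis1 (0.78), Tshz1 (0.74), Meis2 (0.67), Glis3 (0.61), Hnf4g (0.61) and Myt1l (0.59) followed. Meis2, Glis3, Hnf4g and Myt1l were no longer past the threshold once a trend on gene span was removed, nor after rescaling, which left 5 of the 9 in either case. Nkx6-1, a factor that maintains beta cell identity, was the lower one (0.979 against 2.12, -0.66). The identity factors Pdx1 (-0.38) and Mafa (-0.43) lay on the same side as Nkx6-1 and did not reach the threshold. The median of the list was -0.012.

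Channel and adhesion genes were read against shares of 4.51% of all kept genes and 27.2% of the longest decile of genes that were higher in FSK. Of 21 potassium channel genes, 6 were higher in FSK, led by Kcnb2, a delayed rectifier (16.2 against 4.23 CP10K, 1.72), Kcnj6, a G protein-gated channel (1.59), and Kcnh1 (1.52). The KATP subunit gene Kcnj11 was at 0.459 against 0.775 (-0.28). Of 10 calcium channel genes, Cacnb2 (0.66) and Cacna2d1 (0.59) were higher, and neither was past the threshold after a trend on gene span was removed (0.38 and 0.28) or after rescaling (0.57 and 0.51). Of 22 neurexins, neuroligins, latrophilins, teneurins and their partners, 8 were higher, among them Cntnap2 (53.8 against 22.6, 1.22), and 2 lower, Nlgn2 (-0.78) and Adgrl1 (-0.79). Of 17 guidance genes, Efna5 (1.18), Robo2 (1.15) and Robo1 (1.05) were higher. For Cntnap2, Robo1 and Robo2 the WT CON level was 47.99, 6.31 and 20.9 CP10K, close to FSK (53.8, 5.67 and 20.8), and Ex-4 was the low pool.

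Of the genes that act on chromatin and transcription, 24 histone H3 methyltransferases had a median of -0.35, with 8 lower and 1 higher in FSK. Kmt2a, a methyltransferase of H3 lysine 4, was at 2.87 CP10K in FSK, 8.29 in Ex-4 and 5.07 in CON (-1.26). Kmt2d (-1.01), Kmt2b (-0.74), Kmt2e (-0.74), Setd1a (-0.75), Dot1l (-0.72), Ehmt2 (-0.67) and Nsd1 (-0.62) were also lower, and Smyd3 higher (0.64). Of 24 Mediator genes Med12 was lower (0.556 against 1.59 CP10K, -0.73). Med14 was at 0.753 against 0.463 (0.26), and the kinase gene Cdk8 at 37.98 against 44.2 in WT (-0.21) and at 29.97 against 75.7 in the mutant (-1.31). Cdk8 is one of the 8 listed genes whose counts can include ribosomal RNA, of which 7 were lower in mutant FSK, so its value need not be that of the kinase transcript. Of 14 genes around the elongation factor P-TEFb, Ell2, an elongation factor, was higher (3.19 against 1.03, 1.04), as was the 7SK RNA gene Rn7sk (0.91).

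All 63 kept genes of cytosolic ribosomal proteins had negative differences, from -0.72 to -0.016 with a median of -0.14, and 1 of them, Rps24, was past the threshold. The 83 in the table summed to 4.41 (4.18 to 4.65) CP10K in FSK, 14.5 (14.1 to 14.9) in Ex-4 and 6.36 (6.08 to 6.65) in CON. For 49 nuclear genes of the respiratory chain the median was -0.082 and none was past the threshold. On CP10K values with 0.01 times the median level added, 60 ribosomal protein genes were lower and 0 higher. For respiratory chain genes 30 were lower and 3 higher, against 4646 and 1504 of 10093 kept genes. Hsph1 (-0.73) and Hsp90aa1 (-0.68), heat shock protein genes, were lower among 14 genes of the stress and dissociation response.

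Genes higher and lower in FSK differed in length. The median span from the first to the last annotated base was 211 kb for genes higher in FSK, 25.3 kb for genes lower, and 35.8 kb for all kept genes. The median difference went from -0.17 in the shortest decile of genes to 0.28 in the longest. Among the longest 984 genes 268 (27.2%) were higher and 10 lower, and among the shortest 984 genes 4 were higher and 39 (3.96%) lower. The same course was present in the mutant, from -0.11 to 0.30. Against WT CON, the medians of the longest decile were 0.011 for FSK and -0.25 for Ex-4, and those of the shortest decile -0.058 and 0.12. After a smooth trend on length was removed, 309 genes were higher and 220 lower, of which 282 and 177 had been called before. Differences then were 2.18 for Dgkg, 2.09 for Gnas, 1.66 for Pde10a, 1.27 for Pcsk1 and -1.90 for Mlxipl. Of the pathway lists, the calls of Gnaq, Gnb2, Rapgef4, Akap6, Akap13, Akap8, Crem, Chrm3 and Dgkh ended with this step, as did those of Ica1, Cplx2, Nkx6-1, Ehmt2, Smyd3, Rps24 and Hsp90aa1, and 1 of 4 higher exocytosis genes was left. All 5 phosphodiesterase and all 6 potassium channel genes stayed higher. Rescaling ended the calls of Prkar1a, Akap13, Crem and Smyd3.

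**Figure D4:**
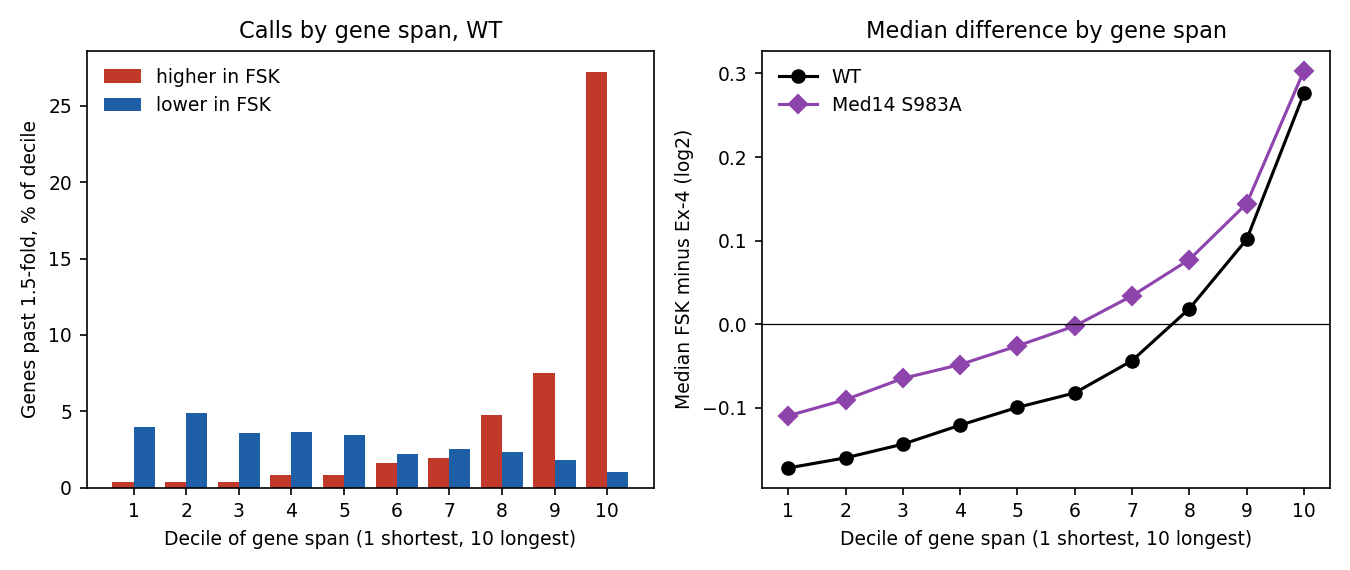
Left, percent of genes past 1.5-fold in WT beta cells by decile of gene span (red, higher in FSK; blue, lower). Right, median difference FSK minus Ex-4 by the same deciles in WT and Med14 S983A beta cells; the longest decile of genes stands out with 27.2% higher in FSK, and both median curves go up with span.

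The untreated WT pool was then placed beside the contrast. For 390 of the 455 genes higher in FSK, WT CON lay between the treatments, for 29 below Ex-4 and for 36 above FSK. Over these genes the median difference from CON was 0.41 for FSK and -0.44 for Ex-4. FSK was past 1.5-fold above CON in 145 of them, and Ex-4 past 1.5-fold below CON in 146. The comparisons share the CON pool and each shares a pool with the contrast, so the counts are descriptions. Genes with the largest differences of each kind, chosen after their values were seen, give examples. Dgkg, Dlg2 and Gnas stood above CON in FSK by 2.25, 1.64 and 2.14 and differed from CON in Ex-4 by -0.11, -0.45 and 0.081. Sgcz, a sarcoglycan gene, was at 31.5 CP10K in FSK, 23.02 in CON and 9.15 in Ex-4, and the cation channel gene Trpm3 at 40.8, 27.2 and 12.4, so that here Ex-4 was the pool that stood apart.

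On the lower side CON lay between the treatments in 285 of 296 genes, with medians of -0.27 for FSK and 0.48 for Ex-4. FSK was past 1.5-fold below CON in 25 genes and Ex-4 past 1.5-fold above CON in 85. Mlxipl (-1.69 in FSK, 0.27 in Ex-4), Insrr (-1.34, -0.11) and Baiap3, a gene of dense core vesicle traffic (-1.03, 0.38), belonged to the first kind. Srrm2 (-0.49, 1.01) and Camk1d (-0.39, 1.37) belonged to the second.

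To follow these genes in pools outside the WT contrast, the contrast was repeated in Med14 S983A beta cells, whose pools entered the filter on low values but not the calls in WT. Of 10093 kept genes, 5.24% were higher and 2.26% lower in FSK there. Of the 455 genes higher in WT, 397 were past the threshold in the same direction in the mutant (87.3%, Clopper-Pearson interval 83.8 to 90.2), and 453 had the same sign. Of the 296 lower genes, 203 were past it (68.6%, 62.96 to 73.8) and all had the same sign. Across kept genes, which are not independent and share depth and base composition, the WT and mutant differences had a Pearson r of 0.941. Dgkg was at 11.9 CP10K in mutant FSK and 1.61 in mutant Ex-4, Igf1r at 49.7 and 8.42, Gnas at 15.8 and 3.73, Pde10a at 106 and 24.7, and Mlxipl at 3.03 and 14.3. Gsdma, a gasdermin gene (3.47 against 0.278 CP10K in WT, 3.48 against 0.209 in the mutant), and Herc4, a ubiquitin ligase gene (5.22 against 0.792, 5.50 against 0.710), completed the 10 genes with the largest differences shared by the genotypes on the higher side.

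The position of the untreated pool differed between the genotypes. Over the genes higher in WT FSK, the median difference from mutant CON was 0.86 for mutant FSK and 0.015 for mutant Ex-4, and over the lower genes -0.73 and -0.069. Mutant CON thus lay with mutant Ex-4, where WT CON lay between the treatments. The 8 listed genes whose counts can include ribosomal RNA had a like order. Their sums in CON, FSK and Ex-4 were 344, 281 and 917 CP10K in WT and 1189, 275 and 1479 in the mutant. Their part in the agreement of the genotypes was followed only by the rescaling, and their part in the position of CON was not tested. In WT, G6pc2 was at 4.20 CP10K in CON, 1.90 in Ex-4 and 8.97 in FSK, and its mutant levels were 1.59, 1.94 and 9.34 in that order. The WT levels of Ero1b were 29.1, 19.6 and 43.5 and its mutant levels 11.9, 14.3 and 37.2. Ddx5 had WT levels of 12.1, 20.3 and 4.71 and mutant levels of 21.01, 20.4 and 4.37. In these 3 examples, picked with their levels known, the treated pools lay nearer to each other between the genotypes than the untreated pools did. A difference between genotypes was not tested, since each was 1 pool.

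Among the genes past the threshold in WT, Peak1 and Rn7sk had the opposite sign in the mutant. Peak1 was at 5.17 CP10K in WT FSK, 0.570 in WT Ex-4 and 0.508 in WT CON, but at 0.252, 0.491 and 0.649 in the mutant, so that the FSK pool was the highest in WT and the lowest in the mutant. Rn7sk, which encodes the 7SK RNA that holds P-TEFb inactive, had WT levels of 7.30, 3.43 and 1.52 CP10K and mutant levels of 1.12, 5.15 and 2.93. Hgsnat kept its sign, with a lower FSK level in the mutant (2.64 against 4.75 CP10K in WT) and an Ex-4 level of 0.554 against 0.537 in WT.

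**Figure D5:**
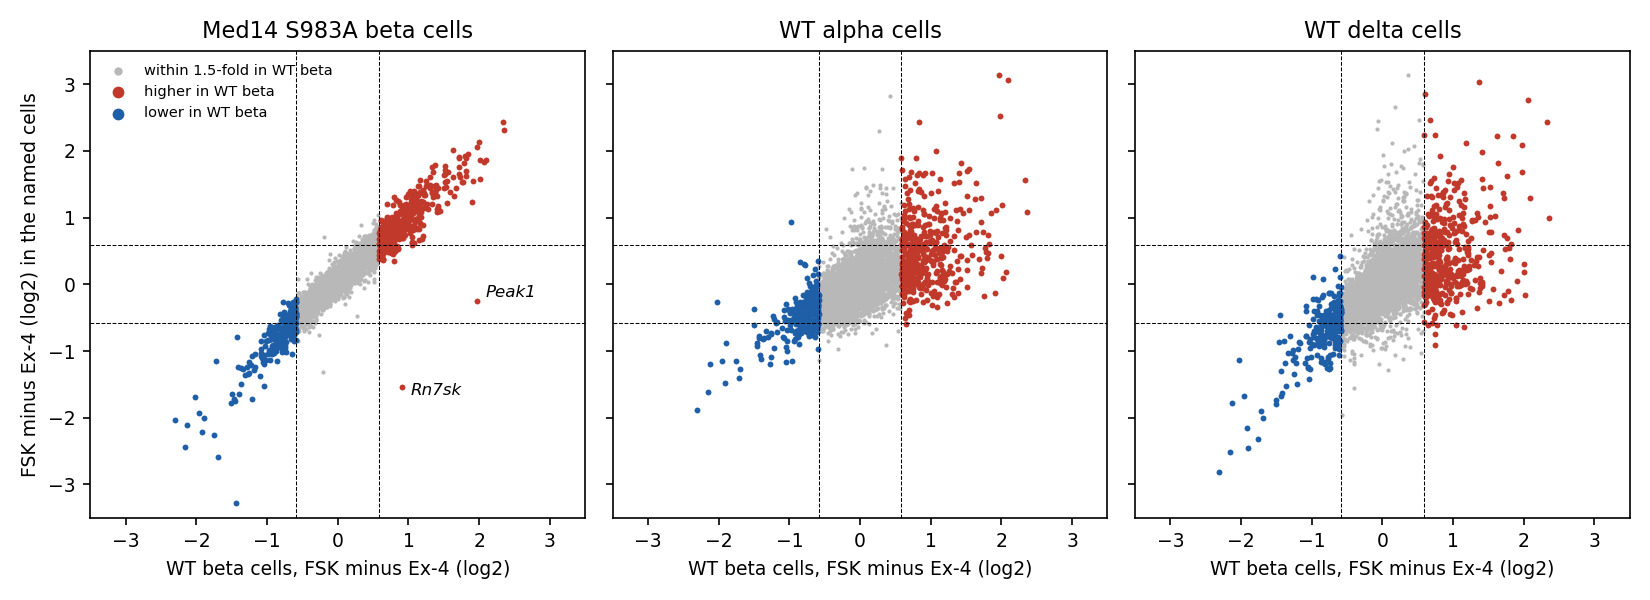
Difference FSK minus Ex-4 in WT beta cells (x axis) against the same difference in Med14 S983A beta cells, WT alpha cells and WT delta cells (y axes), on the log2(CP10K + 1) scale, for the genes kept in beta cells; dashed lines mark 1.5-fold. In the mutant the called genes (red and blue) follow the diagonal except Peak1 and Rn7sk, and in alpha and delta cells the spread is wider.

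Since FSK does not need the GLP-1 receptor, the contrast was also read in alpha and delta cells of the same WT islets. The alpha pools held 269394 counts in FSK and 451338 in Ex-4 and the delta pools 427549 and 431797, so their values are less precise than those of beta cells. In alpha cells 4.22% of kept genes were higher and 1.62% lower in FSK, and in delta cells 5.49% and 3.88%. Of the 455 genes higher in beta cells, 162 (35.6%) were past the threshold in the same direction in alpha cells and 163 (35.8%) in delta cells. The same sign was held by 389 of them in alpha and 359 in delta cells. Of the 296 lower genes the counts were 89 (30.1%) and 160 (54.1%), and 285 and 291 had the same sign. The Pearson r across genes was 0.620 for alpha and 0.626 for delta cells, and the points share islets, wells and any free RNA.

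Genes differed in which cell types showed them. Igf1r (alpha 1.57, delta 2.43) and Pde10a (3.14, 1.69) were higher in FSK in all 3 cell types. Gnas was higher in delta cells (2.77) and at 0.18 in alpha cells, while Mctp1 (0.10, -0.16), Kcnb2 (0.17, -0.17) and Pcsk1 (0.084, -0.15) were within the threshold in both. St18 was at 0.035 and 0.41, and G6pc2 at 0.49 and -0.10. On the lower side Mlxipl (-1.14, -1.68), Ddx5 (-0.89, -2.45) and Cmss1 (-1.88, -2.81) were lower in all 3 cell types, and Peg3 was at -0.26 in alpha and -1.14 in delta cells. Ins2 RNA, which belongs to beta cells, had differences of -0.62 in alpha and -1.17 in delta nuclei, and the part of free RNA in the other alpha and delta values was not tested.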

How the data were processed

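Islets of WT and Med14 S983A mice (CON, FSK or Ex-4) were taken by the authors through combinatorial barcoding of nuclei, in 8 sublibraries that each hold all 6 conditions. The authors aligned reads to mm39, filtered nuclei, normalized them with SCTransform and corrected batches with Harmony ahead of clustering. They then assigned cell types, drew an equal number of nuclei per condition and pooled the nuclei of a condition and type. The deposited values are natural log values, ln(1 + CP10K), of 17362 genes in 54 columns. Whole counts were recovered from these (100% of values within 0.001 of a whole number). Whether the pooled values were taken after the normalization and the equal draw, and the number of nuclei per cell type, were not given in the sources used here.

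Columns were subtracted and divided by the natural log of 2. Genes were kept at or above the 40th percentile of the mean over the 6 pools of a cell type (0.0598 CP10K in beta cells) and called at 1.5-fold. With 1 pool per condition no test was made. Intervals are 95% Poisson, Clopper-Pearson and conditional binomial (scipy 1.17.1). The Poisson and conditional binomial intervals cover counting error only. The Clopper-Pearson intervals of shares treat genes as independent draws and do not measure the spread between pools of a condition. The floor was 3 counts. The calling steps were tested on simulated data. Spans and promoters came from GRCm39 with GENCODE M39. Gene names were used as in the table, and 9835 of 10093 kept genes (97.4%) had a span.

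Genes named were the 12 with the largest and smallest differences above the median level, the 10 in each direction with the largest differences shared by both genotypes, members of lists, and genes opposite in the genotypes. Of the 26 named by rank, 21 overlap another annotated gene. Some members of the lists are not reported here. The members and lists were chosen with earlier results of these data known.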

Additional observations from a re-analysis of the deposited data

Results flagged for a closer look

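Rn7sk was past the threshold in opposite directions in the genotypes. Its difference FSK minus Ex-4 was 0.91 in WT beta cells, with 7.30 against 3.43 CP10K, and -1.53 in Med14 S983A beta cells, with 1.12 against 5.15 CP10K. In WT alpha and delta cells it was 1.33 and 0.38. The gene spans 0.331 kb (chr9:78082585-78082915, minus strand, GRCm39) and does not overlap another annotated gene. The difference between the genotypes was not tested, since each value rests on 1 pool.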

How the results depend on the processing

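Filters on low values (none, the 75th percentile, or the mean of the compared pools) kept the counts within 1.5 times and the shares within their intervals. With no filter or the mean of the compared pools the calls did not change at all. A gene past the threshold lies above those filters by the size of its difference, so this is no check of the calls. The scale mattered more. On linear CP10K, 1504 genes were higher and 4646 lower with a pseudocount of 0.01 times the median, 849 and 1497 with 1 times the median, and 1414 and 4366 with 0.1 times the median, which was added after seeing the data. With 0.01 times the median, 56 counts of list members moved by more than 1.5 times, or from or to 0, and 26 did not. Phosphodiesterases then had 7 higher and 3 lower, and CREB factors and early response genes 6 higher and 5 lower each. At 2-fold the counts were 149 and 47, and with the median set to 0 the lower count was 190.

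The share of lower genes also past the threshold in the mutant was 61.6%, 45.2% and 58.2% with these pseudocounts, 87.2% at 2-fold, 83.7% with the median set to 0 and 80.9% with the length trend removed. That of higher genes was 83.2% at 2-fold, 81.3% with the median set to 0, 80.05% after rescaling and 78.3% with the length trend removed. In alpha cells the share of higher genes was 50.8% and 47.9% with the pseudocounts of 0.01 and 0.1, 22.8% at 2-fold and 29.8% with the length trend removed, and that of lower genes 61.2%, 38.01% and 59.4% with the pseudocounts. In delta cells the share of higher genes was 52.5%, 41.7% and 50.99% with the pseudocounts and 22.8% at 2-fold, and that of lower genes 73.5% and 72.8% with 0.01 and 0.1 and 65.96% at 2-fold. The share of all kept genes past the threshold in those pools was not counted at these settings. With 0.01 times the median, 4646 of 10093 kept genes were lower in WT beta cells alone. A higher share thus cannot be read as closer agreement, and the cause of the changes was not tested.

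Of 124 named genes past 1.5-fold, none changed sign under any alternative in which it was measured. These were chosen for large differences, and pseudocounts, filters, the fold threshold and the median shift cannot turn their sign. The kept signs are thus no check of the calls. At 2-fold 64 of the 124 were past the threshold, after rescaling 104 of 116. With the median set to 0 there were 120 of 124 and with the length trend removed 94 of 123. No paired analysis was possible because each condition was 1 pool. Depth limits low genes, since 1 count was 0.00323 CP10K of the WT FSK pool and 0.00335 of WT Ex-4, and alpha and delta pools were shallower.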

Other observations

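Beside the genes above, several further genes were among the 30 with the largest differences above the median level and stood apart in FSK in both genotypes. They were chosen after their values were seen. Scn3a, a voltage-gated sodium channel gene, was at 4.98 CP10K in WT FSK, 0.765 in WT Ex-4 and 0.750 in WT CON, and at 4.65, 0.945 and 0.732 in the mutant. Slc23a2, a vitamin C transporter gene, was at 6.38, 1.24 and 1.61 CP10K in the WT pools and at 5.93, 0.856 and 0.930 in those of the mutant. The long noncoding RNA gene Morrbid had WT levels of 3.42, 0.255 and 0.292 and mutant levels of 3.05, 0.308 and 0.327. Rgs17, a regulator of inhibitory G proteins, had WT levels of 5.12, 0.872 and 1.32 and mutant levels of 5.73, 0.982 and 0.956. In all 4 genes CON and Ex-4 were nearer to each other than to FSK in each genotype.

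None of 19 circadian clock genes, 9 genes of the G1 phase and 9 of NF-kB signaling was past the threshold in WT. Plat, which encodes tissue plasminogen activator, was at 0.533 CP10K in WT FSK and 0.821 in mutant FSK and at or below 0.0731 in the other 4 beta pools.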
